A study of Mus musculus with 8 samples.

Results

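The cytosolic ribosome is built from ribosomal RNA and a set of ribosomal proteins, named Rpl for the large subunit, which forms peptide bonds, and Rps for the small subunit, which reads the messenger RNA. Rows whose symbol is Rpl, Rps or Rplp with a number, with at most 1 letter after it, or Rpsa, were taken from the deposited FPKM table: 80 genes, 49 of the large and 31 of the small subunit, of 23293 mouse gene rows. FPKM scales fragments by transcript length and by library size, which allows a rough comparison of levels between genes, with limits given below. Because the cell needs the proteins in equal number, their genes are known for being expressed in concert. Their messenger RNAs commonly start with a run of pyrimidines, the terminal oligopyrimidine tract, through which growth signals set their translation. In bone marrow, loss of 1 copy of some of these genes is known to cause anaemia, as in Diamond-Blackfan anaemia and the 5q- syndrome.

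Poly(A) RNA was sequenced from bone marrow cells selected on magnetic beads for c-Kit (Cd117), the receptor that marks stem and progenitor cells. Each library came from 1 mouse, 4 weeks after PIpC, an inducer of the interferon-responsive Mx1-cre recombinase, and there were 2 libraries in each of 4 groups. Controls were Smc3 fl/+ without Mx1-cre. The other 3 groups carried Mx1-cre and were Smc3 del/+ (1 copy of the cohesin subunit gene Smc3 deleted), Flt3-ITD (an activating duplication in the Flt3 receptor kinase) and both together, called the combined group here and, in lists of values, "both". The genotype field gives the combined group as Smc3 fl/del Flt3-ITD and the sample titles as het. Ages of the mice were not given in the sources used here. Mx1-cre acts in many haematopoietic and other cells, and every comparison with control also compares its presence.

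The libraries held 10490 to 10843 mouse genes at 1 FPKM or more, and the number of reads is unknown. Kit was at 60.1 and 54.9 FPKM in control, 49.5 and 48.9 with Smc3 del/+ and 48.1 and 57.6 with Flt3-ITD. In the combined group it was lower than in every other library, at 40.1 and 37.4. Xist, the RNA of the inactive X chromosome, was at 500 to 657 FPKM in the controls and the combined group. It was at 0.140 to 0.936 in the other 2 groups. Sex and genotype therefore cannot be told apart where Smc3 del/+ or Flt3-ITD is compared with control, or the combined group with Flt3-ITD. The same holds for the interaction of Smc3 deletion and Flt3-ITD. Smc3 was at 119 and 112 FPKM in the controls and at 135 and 133 in the libraries labelled Smc3 del/+, so its level gives no check of the deletion. Combined replicate 2 stood apart: it had 11076 genes listed at 0, against 8878 to 9907 in the other libraries, and results that involve it are given with and without it.

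Of the 80 genes, 77 had a mean of at least 1 FPKM and were tested, 46 of the large and all 31 of the small subunit. The 3 others are paralogues known for use in muscle or testis. Rpl10l and Rpl39l were listed at 0 in every library. Rpl3l was at 0.776 FPKM in control replicate 1, 0.109 in Smc3 del/+ replicate 2 and listed at 0 in the other 6, while Rpl3, its widely expressed counterpart, stood between 301 and 493 FPKM.

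The median of the 77 tested genes stood at 337 to 547 FPKM by library. The highest mean FPKM over the 8 libraries was that of Rpl39 (3708), a very short protein near the exit tunnel of the large subunit. It was followed by Rps26 (2113), Rps24 (1505), Rpl28 (1297) and Rpl32 (1272). The lowest of the tested genes were Rps27 (1.51 FPKM) and Rpl26 (21.2 FPKM), and Rpl30 (32.5), Rps15a (41.0) and Rpl15 (57.8) came next.

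**Figure D1:**
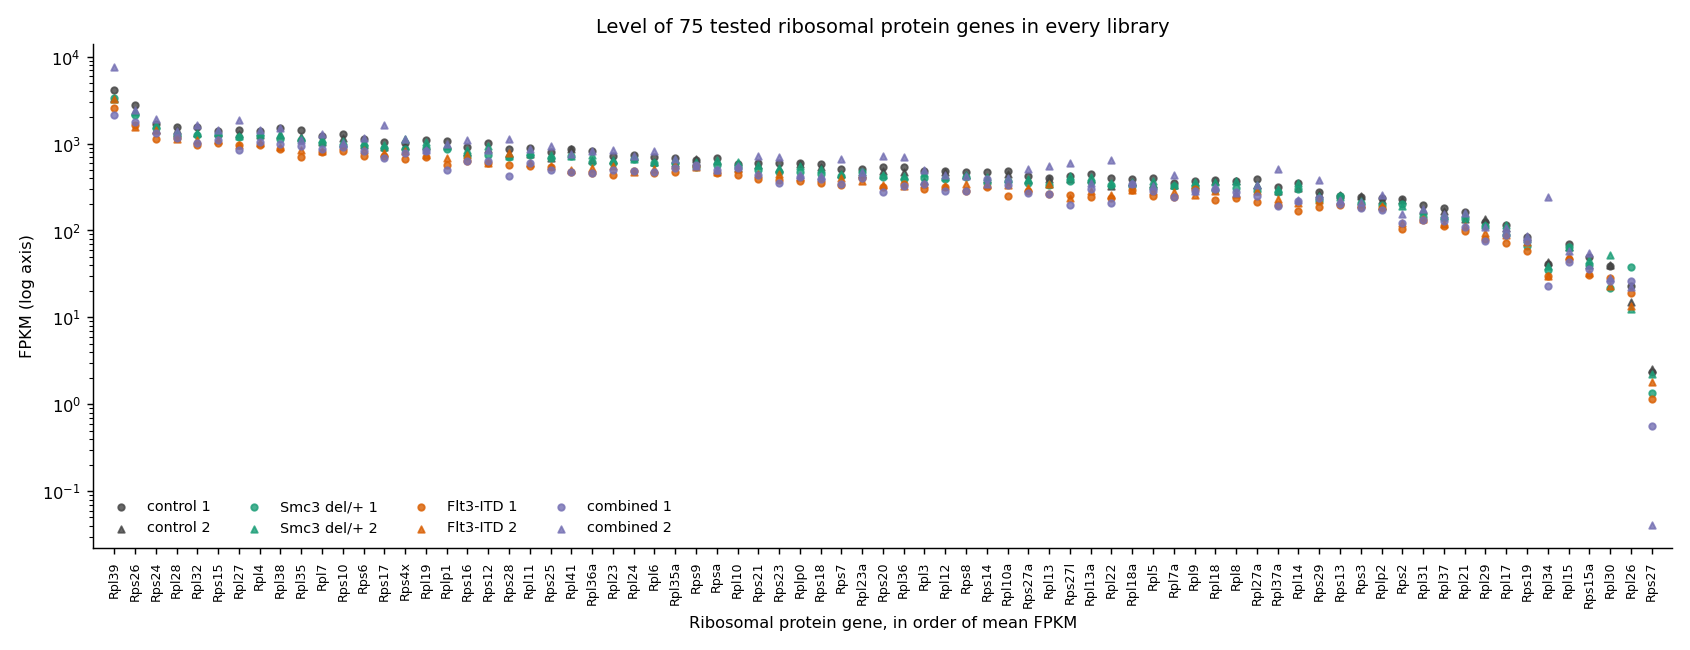
FPKM (log axis) of 75 of the 77 tested ribosomal protein genes in order of their mean, with 1 point for each of the 8 libraries, coloured by group (circles replicate 1, triangles replicate 2). Rpl39 leads at a mean of 3708 FPKM, Rps27 is last at 1.51, and combined replicate 2 stands far above the other libraries in Rpl34, at 241 FPKM.

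Several low levels sit beside a row for a pseudogene or close paralogue in the same table. Reads of such copies may have been divided between rows, which was not tested. Rpl34 was at 22.7 to 43.6 FPKM in 7 libraries and at 241 in combined replicate 2, while its pseudogene row Rpl34-ps1 was at 332 to 475 FPKM in all 8. Rps15a was at 30.4 to 54.8 FPKM and Rps15a-ps6 at 138 to 457. Rps27 was at 2.39 and 2.53 FPKM in the controls, 1.36 and 2.25 with Smc3 del/+, 1.16 and 1.82 with Flt3-ITD and 0.569 and 0.0405 with both. Its close paralogue Rps27l, a p53 target, was at 196 to 601 FPKM. The levels and changes of Rpl34, Rps15a and Rps27 are uncertain for this reason. Pseudogene rows also stood beside Rpl31 (Rpl31-ps12, mean 258 FPKM), Rplp2 (Rplp2-ps1, 42.7) and Rps19 (Rps19-ps3, 4.18), whose values may be affected in the same way.

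Summed over the 80 genes, ribosomal protein mRNA made up 8.70% and 8.73% of all mouse FPKM in the 2 controls and 8.26% and 8.63% in Smc3 del/+. With Flt3-ITD it made up 5.06% and 6.47%, and in the combined group 6.36% and 8.61%. The Flt3-ITD libraries were below all 4 libraries without the duplication, while combined replicate 1 lay within the range of Flt3-ITD and combined replicate 2 within that of Smc3 del/+. The group means were 8.71% ± 0.0227 (SD, n = 2) for control, 8.44% ± 0.264 for Smc3 del/+, 5.76% ± 0.997 for Flt3-ITD and 7.49% ± 1.59 for the combined group. Short RNA genes took 109575 and 57824 of the summed FPKM in the controls and 635 to 22500 in the other libraries. Without them the shares were 10.6% and 9.77% in control, 8.27% and 9.0% with Smc3 del/+, 5.06% and 6.48% with Flt3-ITD and 6.38% and 8.64% with both, and the order of the groups' means was the same.

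Ribosomal protein genes were lower in Flt3-ITD than in control. The log2 fold change, on the log2(FPKM + 1) scale, was negative for all 77 tested genes, with a median of -0.47, against -0.01 over all 10854 genes tested. It ran from -1.0 to -0.20, and its SD over the genes was 0.147, against 0.745 over all genes. In 75 of the 77, both Flt3-ITD libraries lay below both controls, as did 35.2% of all genes tested. By limma's test across all genes with Benjamini-Hochberg adjustment, 11 genes fell and 0 rose at an adjusted p under 0.05, while 9.50% of all genes tested were called lower and 8.51% higher. At an unadjusted p under 0.05 there were 33, all of them lower, against 3680 of the 10854 genes tested, 1864 of them lower. No other tool was run.

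The 11 genes that fell include 3 of the small subunit. Rps2, a protein at the entry of the messenger RNA channel, stood at 229 and 224 FPKM in the controls, 201 and 193 with Smc3 del/+, 103 and 123 with Flt3-ITD and 121 and 156 with both. Its log2 fold change in Flt3-ITD was -1.0 ± 0.160 (SE; adjusted p = 0.00758). The 4 libraries with Flt3-ITD were all below the 4 without it. Rps18, in the head of the small subunit, was at 588 and 536 FPKM in control and 350 and 400 in Flt3-ITD, a log2 fold change of -0.58 ± 0.150 (adjusted p = 0.0352). The Smc3 del/+ libraries lay between those groups, at 443 and 512 FPKM.

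The other 8 belong to the large subunit. Rpl14 was at 351 and 308 FPKM in control, 299 and 352 with Smc3 del/+, 169 and 206 with Flt3-ITD and 219 and 224 with both, and it fell by 0.81 ± 0.157 on the log2 scale in Flt3-ITD (adjusted p = 0.0145). As with Rps2, no library with Flt3-ITD reached any library without it. Rpl35, near the exit of the peptide tunnel, was at 1430 and 1200 FPKM in control and 707 and 833 in Flt3-ITD (log2 fold change -0.77 ± 0.181, adjusted p = 0.0274). Rpl41, the shortest of the proteins, was at 870 and 865 FPKM in control and 466 and 498 in Flt3-ITD (log2 fold change -0.85 ± 0.228, adjusted p = 0.0409). Rpl13a, known for its part in interferon-gamma-dependent control of translation, was at 447 and 395 FPKM in control and 244 and 285 in Flt3-ITD (log2 fold change -0.67, adjusted p = 0.0301). In each of these 3 genes the groups do not overlap. The remaining calls were Rpl10a (-0.66, adjusted p = 0.0388), Rplp0 (-0.61, adjusted p = 0.0287), Rpl37 (-0.59, adjusted p = 0.0272) and Rpl8 (-0.56, adjusted p = 0.0367), given as log2 fold changes with limma's adjusted p.

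**Figure D2:**
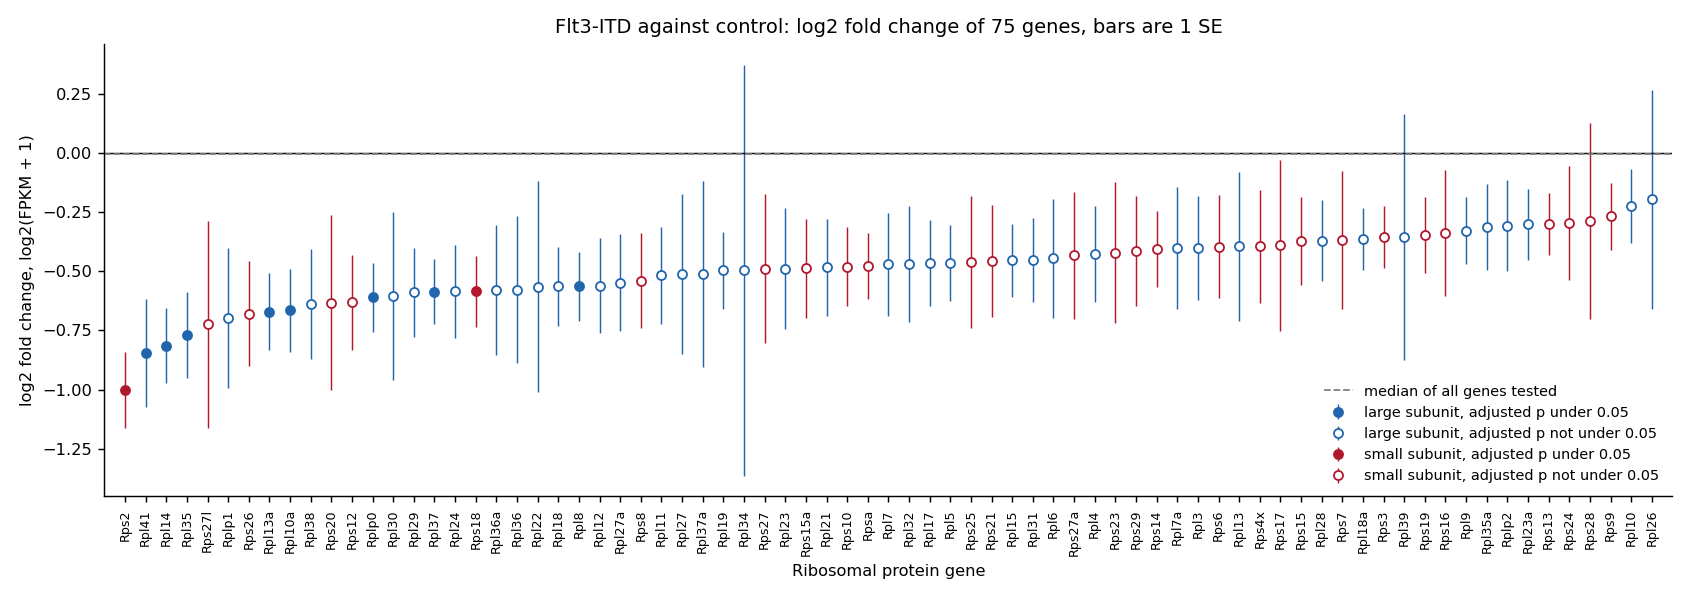
Log2 fold change (log2(FPKM + 1) scale) of 75 of the 77 tested genes in Flt3-ITD against control, sorted, with bars of 1 SE; filled points have an adjusted p under 0.05 and colour gives the subunit. All points lie below 0, from Rps2 at -1.0 to Rpl26 at -0.20, and the filled ones are 8 of the large and 2 of the small subunit.

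These calls depend on few libraries. The count of 11 became 0 without control replicate 1, 0 without control replicate 2, 0 without Flt3-ITD replicate 1, 3 without Flt3-ITD replicate 2 and 2 without either of the Smc3 del/+ libraries, which enter the fit through the shared spread. It became 59 without combined replicate 1 and 59 without combined replicate 2, when 19.9% of all genes tested were called lower in both cases. Without a filter on low values it became 1. The median over the genes stayed between -0.56 and -0.38 when any 1 library was left out. It was -0.96 in the authors' normalized table and -1.01 after scaling to the spike-ins, where the median of all genes was -0.58 and -0.49.

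Several lists of blood cell markers differed between Flt3-ITD and control, and 2 of them were also lower with Smc3 del/+: those of B cells and megakaryocytes. Erythroid markers summed to 2269 and 2176 FPKM in control, 1939 and 2077 with Smc3 del/+, 198 and 89.0 with Flt3-ITD and 229 and 661 with both, and 14 of 15 tested fell in Flt3-ITD against control. Of 10 B cell markers 9 fell, with sums of 229 and 90.4 FPKM in control and 5.32 and 9.90 in Flt3-ITD, and of 10 megakaryocyte markers 9 fell. Of 10 neutrophil markers 6 rose, with sums of 87006 and 79761 FPKM in control and 229914 and 161006 in Flt3-ITD. Other lists did not move in 1 direction. Of 9 tested macrophage and monocyte markers 4 fell and 3 rose. Of 10 progenitor markers 1 fell and 0 rose, with a median log2 fold change of 0.01. Among all genes tested, 9.50% were called lower and 8.51% higher in this comparison. The T cell markers were all under the filter, with sums of 0.559 to 5.30 FPKM. In such mixed samples fewer cells of a type and less RNA per cell cannot be told apart, and the part of these markers in the ribosomal protein values was not tested.

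The genes with the smallest differences in Flt3-ITD did not pass the test. Rpl26 had a log2 fold change of -0.20 ± 0.463 and spread widely within groups, with 38.0 and 12.3 FPKM in the Smc3 del/+ libraries. Rpl10, an X-linked protein at the heart of the large subunit, was at 582 and 519 FPKM in control and 432 and 512 in Flt3-ITD, a log2 fold change of -0.22 ± 0.156. Rps9 was at 651 and 667 FPKM in control and 553 and 541 in Flt3-ITD, a log2 fold change of -0.27 ± 0.141. The Flt3-ITD libraries of these last 2 genes were still below both controls, by a smaller margin than in the genes called.

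Genes known from disease had the following values. Rps19, the gene most often mutated in Diamond-Blackfan anaemia, was at 84.4 and 83.6 FPKM in control, 66.3 and 79.7 with Smc3 del/+, 58.8 and 73.8 with Flt3-ITD and 75.1 and 86.7 with both. Rps14, the gene of the 5q- syndrome, was at 472 and 396 FPKM in control, 349 and 417 with Smc3 del/+, 320 and 333 with Flt3-ITD and 389 and 343 with both. Neither passed the test in any comparison. In Flt3-ITD their log2 fold changes were -0.35 for Rps19 and -0.41 for Rps14. Rpl5 and Rpl11, which bind Mdm2 with 5S ribosomal RNA when ribosome assembly fails, were at -0.47 and -0.52 and did not pass either. Of the 20 genes linked to Diamond-Blackfan anaemia or 5q-, 1 fell in Flt3-ITD (Rpl35), a share below the 9.50% of all genes tested, and the median was -0.45.

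The stalk of the large subunit recruits the translation factors and is made of Rplp0, Rplp1 and Rplp2 on a base of Rpl12. Rplp0 was at 602 and 585 FPKM in control, 475 and 559 with Smc3 del/+, 369 and 409 with Flt3-ITD and 417 and 440 with both, and it is the 1 stalk gene of 4 that fell in Flt3-ITD. Rplp1 was at 1067 and 958 FPKM in control, 573 and 678 with Flt3-ITD and 502 and 988 with both. Rplp2 was at 234 and 223 FPKM in control, 180 and 189 with Flt3-ITD and 171 and 258 with both. Both Flt3-ITD libraries lay below both controls for all 4 stalk genes, and their median log2 fold change was -0.59.

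Rpsa, a small-subunit protein also known as a laminin receptor, was at 675 and 630 FPKM in control, 574 and 645 with Smc3 del/+, 460 and 475 with Flt3-ITD and 496 and 494 with both. Its adjusted p in Flt3-ITD was 0.0509, just above the threshold, although all 4 libraries with Flt3-ITD were below the 4 others. The 4 X-linked genes, Rpl10, Rpl36a, Rpl39 and Rps4x, had log2 fold changes from -0.58 (Rpl36a) to -0.22 (Rpl10) in Flt3-ITD, a median of -0.37, and none of the 4 passed the test. At an unadjusted p under 0.05 the count was also 0.

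Start regions of genes that fell are shown because pyrimidine runs at the start site are a known trait of this gene family. RefSeq promoter entries (build GRCm38.p6) matched 60 of the 80 genes by symbol, and 9 of the 11 genes that fell. The 30 bases below run from 10 before to 20 after the annotated start on the coding strand, and capitals mark the longest run that begins with C and goes on in C or T for at least 5 bases in all.
Rpl35, chr2:39005112-39005141, minus strand: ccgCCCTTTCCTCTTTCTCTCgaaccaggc
Rpl14, chr9:120571507-120571536, plus strand: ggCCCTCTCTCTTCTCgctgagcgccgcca
Rpl13a, chr7:45128726-45128755, minus strand: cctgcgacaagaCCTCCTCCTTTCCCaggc
Rps18, chr17:33955646-33955675, minus strand: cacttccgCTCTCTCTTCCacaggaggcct
Rps2, chr17:24720053-24720082, plus strand: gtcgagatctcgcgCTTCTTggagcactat
Rpl37, chr15:5116603-5116632, plus strand: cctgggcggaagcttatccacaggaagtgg
Rpl41, chr10:128549149-128549178, minus strand: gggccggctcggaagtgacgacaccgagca
The first 4 hold the longest runs among the 9, of 18, 14, 14 and 11 bases. Rps2, the gene that fell most, holds a run of 6, and Rpl37 and Rpl41 hold none in this window. Of the 9 genes, 7 had such a run.

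Over the 60 genes with an entry, 68.3% had the pyrimidine run in this window, 67.6% of the 37 large-subunit and 69.6% of the 23 small-subunit genes. It was found in 42.4% of the 8117 tested genes with an entry and in 39.6% of all 27025. The ETS core CCGGAAG, searched on both strands of the 300 bases around the start, was in 41.7% of the 60 genes, 21.9% of the tested genes and 9.93% of all. The YY1 core AAGATGG was in 15% of the 60 genes and 8.93% of the tested genes. The E-box CACGTG, bound by Myc and its partners, was in 10% and 12.3%, and TATAAA in 10% and 8.33%. A match describes these letters and does not show that a factor binds there.

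The medians of the 2 subunits lay close together in the group comparisons with control. In Flt3-ITD against control the median log2 fold change was -0.50 over the 46 large-subunit genes, of which 8 fell, and -0.42 over the 31 small-subunit genes, of which 3 fell. In Smc3 del/+ against control both medians were -0.14. In the combined group against control they were -0.18 for the large and -0.19 for the small subunit, but its libraries differed. Relative to the control mean, combined replicate 1 was at -0.48 for the large and -0.42 for the small subunit. Combined replicate 2 was at -0.01 for the large and 0.18 for the small subunit. No test of the difference between the subunits was made, since genes are not replicates of a group.

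The ratio of summed FPKM of the large to the small subunit was 1.40 and 1.38 in control, 1.41 and 1.36 with Smc3 del/+, 1.35 and 1.35 with Flt3-ITD and 1.33 and 1.49 with both. Both the lowest and the highest ratio came from the combined group. Rpl39 alone made up 13.2% of ribosomal protein FPKM in combined replicate 2, 6.0% in combined replicate 1 and 6.88% to 8.48% in the other libraries. Without Rpl39, an alternative chosen after its values were seen, the ratio was 1.22 and 1.22 in control, 1.22 and 1.20 with Smc3 del/+, 1.17 and 1.15 with Flt3-ITD and 1.19 and 1.16 with both. The 4 libraries with Flt3-ITD were then all below the 4 without it.

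**Figure D3:**
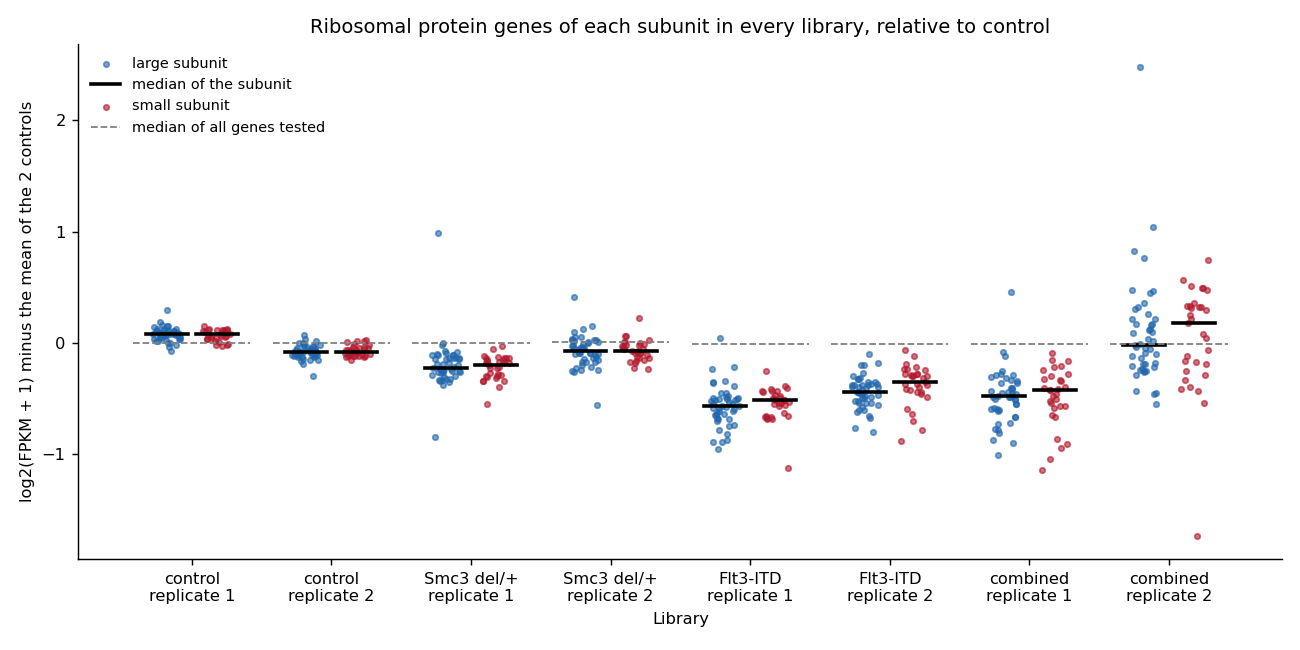
Log2(FPKM + 1) of each tested ribosomal protein gene minus the mean of the 2 controls, by library, with large-subunit genes in blue, small-subunit genes in red, black bars at the subunit medians and a dashed line at the median of all genes tested. The subunit medians sit between -0.56 and -0.35 in the Flt3-ITD libraries and combined replicate 1, while combined replicate 2 spreads from -1.73 to 2.48 around 0.

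Ribosomal protein genes were not called in Smc3 del/+ against control. Of the 77, 0 passed at an adjusted p under 0.05 by limma, and 0 had an unadjusted p under 0.05. Of all genes tested, 0.00921% (1 gene) passed and 4.55% had an unadjusted p under 0.05. The median log2 fold change was -0.14, against 0.00 over all genes, and 72 of the 77 were negative. Both Smc3 del/+ libraries lay below both controls in 35 of the 77, against 23.2% of all genes. The 2 Smc3 del/+ libraries differed from each other, with median differences from the control mean of -0.22 in replicate 1 and -0.07 in replicate 2, and the 2 controls lay at 0.08 and -0.08.

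The gene with the smallest p in this comparison was Rpl37, at 183 and 166 FPKM in control and 138 and 147 in Smc3 del/+, a log2 fold change of -0.29 ± 0.138 (limma's adjusted p = 1). The lowest log2 fold changes were those of Rps27 (-0.32), Rpl36 (-0.31) and Rps10 (-0.29). Rps10 was at 1287 and 1173 FPKM in control and 934 and 1081 in Smc3 del/+, without overlap. The highest were those of Rpl26 (0.21), Rpl10 (0.07) and Rps4x (0.03), whose groups overlap. None of these passed the test.

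In the combined group the 2 libraries disagreed, and the comparisons with it rest on which is taken. Relative to the control mean the median gene was at -0.47 in combined replicate 1 and at 0.04 in combined replicate 2. In replicate 1, 74 of the 77 genes lay below both controls and 1 above both. In replicate 2, 31 lay below and 34 above both. The difference between the replicates had a median of 0.52 on the log2 scale over the 77 genes and -0.03 over all genes tested. It exceeded 1 for 11 of the 77, or 14.3%, against 5.06% of all genes tested. Medians of the same difference were -0.16 in control, 0.14 in Smc3 del/+ and 0.16 in Flt3-ITD.

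The genes furthest apart in the combined pair were higher in replicate 2. Rpl34 was at 22.7 and 241 FPKM, with the doubt on its copies given above, and Rpl39 at 2152 and 7611 FPKM. Rpl22, whose loss is known in T-cell leukaemia, was at 207 and 646 FPKM, and Rps27l at 196 and 601. Rps28 was at 421 and 1142 FPKM and Rpl37a at 190 and 513. For all 6 genes replicate 1 was the lowest of the 8 libraries and replicate 2 the highest.
Other genes were alike in the pair: Rpsa at 496 and 494 FPKM, Rpl8 at 277 and 267, and Rpl9 at 288 and 287. These 3 stood below both controls in both combined libraries. Rank correlations of the difference with transcript length were -0.10 over the 77 genes and -0.19 over 9870 tested genes with a length, and with GC content -0.25 and -0.28. These are across genes of 1 pair of libraries and are given as a description. The part of depth in this difference was not tested: an uncertain estimate from low values put the depth of combined replicate 2 at 0.717 of control replicate 1, the lowest of the 8.

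**Figure D4:**
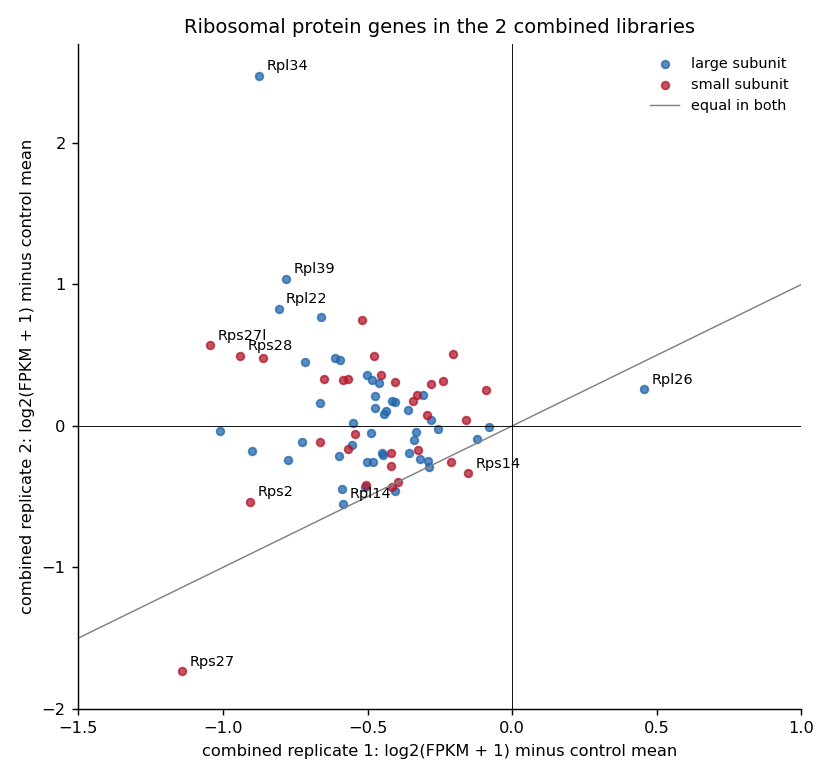
Log2(FPKM + 1) minus the control mean for each tested gene in combined replicate 1 (horizontal) and replicate 2 (vertical), with the line of equal values and 10 genes named. Of the 77 genes, 76 lie left of 0 and 69 above the line, Rpl34 furthest.

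Against Flt3-ITD alone, 0 of the 77 genes passed in the combined group by limma, where 0.286% of all genes passed in either direction. At an unadjusted p under 0.05 there were 4, against 11.0% of all genes. They include Rps29 and Rps15a with log2 fold changes of 0.57 and 0.49, and Rps27 with -0.95. The median was 0.29, against 0.00 over all genes. Both combined libraries lay above both Flt3-ITD libraries in 29 of the 77, against 17.1% of all genes. Without combined replicate 1, 42 genes were called higher and 1 lower (median 0.51), when 14.4% of all genes were called higher. Without combined replicate 2, 0 were called and the median was 0.05.

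Rps29, a zinc-binding protein of the small subunit, was at 186 and 222 FPKM with Flt3-ITD and 235 and 386 with both. The groups do not overlap, and combined replicate 2 is the further from Flt3-ITD. The 3 highest log2 fold changes were those of Rpl34 (1.30), Rpl22 (0.58) and Rps29, and the lowest were those of Rps27, Rps9 (0.03) and Rpl9 (0.04).

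Against control, 2 of the 77 genes fell in the combined group, where 6.38% of all genes tested were called lower. Rps2 fell by 0.72 ± 0.160 on the log2 scale (limma's adjusted p = 0.0301) and Rps27 by 1.44 ± 0.313 (adjusted p = 0.0282), the latter at levels of 0.0405 to 2.53 FPKM. The next by p was Rpl14, at -0.57 (adjusted p = 0.0583). The median was -0.19, and the highest values were those of Rpl34 (0.80), Rpl26 (0.36) and Rps29 (0.15). Without combined replicate 1 there were 11 genes called higher and 4 lower, with a median of 0.04, when 12.8% of all genes were called higher. Without combined replicate 2, 38 were called lower with a median of -0.47, when 15.9% of all genes were called lower. Leaving out either control or either Smc3 del/+ library lowered the number of calls, among these genes and over all genes tested. The median was then between -0.28 and -0.09.

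The interaction asks whether the Smc3 deletion shifts expression differently with and without Flt3-ITD. It sets control and the combined group, both high in Xist, against Smc3 del/+ and Flt3-ITD, both low in Xist. It therefore cannot be told apart from sex. By limma 0 of the 77 genes passed, against 0.0369% of all genes, and 4 had an unadjusted p under 0.05 (Rpl37, Rpl10a, Rpl35 and Rps29), against 9.30%. The median was 0.41, against -0.01 over all genes. It was 0.13 with 0 calls without combined replicate 2. Without combined replicate 1 it was 0.64, and 37 genes were called higher when 9.08% of all genes were.

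Averaged over both Smc3 states, which balances the groups with and without Xist on each side, Flt3-ITD was compared over 4 libraries against 4. Mx1-cre is not balanced here or in the averaged Smc3 effect below, since the controls alone lack it. By limma 10 of the 77 genes fell and 0 rose, while 12.8% of all genes tested were called lower, and the median was -0.25. The 10 were Rpl14 (-0.68 ± 0.118, adjusted p = 0.00598), Rps2 (-0.76 ± 0.138, adjusted p = 0.00700), Rpl8, Rpl15, Rpsa, Rplp0, Rpl13a, Rpl29, Rps27 and Rps18. In 13 of the 77, all 4 libraries with Flt3-ITD lay below the 4 without it, against 15.1% of all genes. Rpl34 was the 1 gene with a positive value (0.25). Without combined replicate 2, 65 were called lower with a median of -0.42, when 22.5% of all genes were called lower. Without combined replicate 1 there were 5, when 11.6% of all genes were called lower. Without Smc3 del/+ replicate 1 there were 8, when 9.08% of all genes were. Without any other single library there were 2, when 6.41% to 8.01% of all genes were.

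The averaged effect of the Smc3 deletion had 0 calls among the 77 genes and 0% among all genes tested. At an unadjusted p under 0.05 there was 1, Rps27 (log2 fold change -0.63), against 4.84% of all genes. The median was 0.08, and it changed sign to -0.16 in the authors' normalized table, to -0.19 after spike-in scaling and to -0.08 without combined replicate 2.

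Genes that make or use ribosomes were compared beside them. In Flt3-ITD against control, 22 of 56 tested genes of ribosome biogenesis fell and 0 rose, against 9.50% of all genes tested called lower. Their median log2 fold change was -0.74, against -0.01 over all genes. The smallest p-values were those of Nhp2l1 (-0.93), which binds box C/D and U4 RNAs, Mybbp1a (-0.86), a nucleolar protein, and Ddx21 (-1.05), a helicase of ribosomal RNA processing. Npm1, the nucleolar chaperone, was at 1239 and 1089 FPKM in control and 536 and 585 in Flt3-ITD. A list of 44 genes held translation factors and further genes known to share the pyrimidine tract. The tract was not counted in this list. Of the 44, 10 fell, against 9.50% of all genes tested called lower, and the median was -0.45. By p they were led by Eif2s3x (-1.23), Pabpc4 (-1.37) and Eif3i (-0.98). Eif2s3x is X-linked, and the sex of the groups differs here.

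Mitochondrial ribosomal proteins form a separate ribosome that translates mitochondrial messages. Of their 76 genes 14 fell and 0 rose, against 9.50% of all genes tested called lower. The median over these 76 was -0.44. The smallest p-values were those of Mrpl52 (-2.10), Mrps36 (-0.96) and Mrpl12 (-0.98). Of 7 genes of Myc and its partners, Mxi1, a Myc antagonist, rose by 0.64 on the log2 scale, and Myc itself, at 124 and 127 FPKM in control and 78.0 and 80.9 in Flt3-ITD, did not pass (limma's adjusted p = 0.138). The 3 lists of the translation apparatus and the cytosolic ribosomal proteins were all lowest in Flt3-ITD and in combined replicate 1. In combined replicate 2 the biogenesis list remained at a median of -0.22 relative to control, where the ribosomal proteins were at 0.04.

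**Figure D5:**
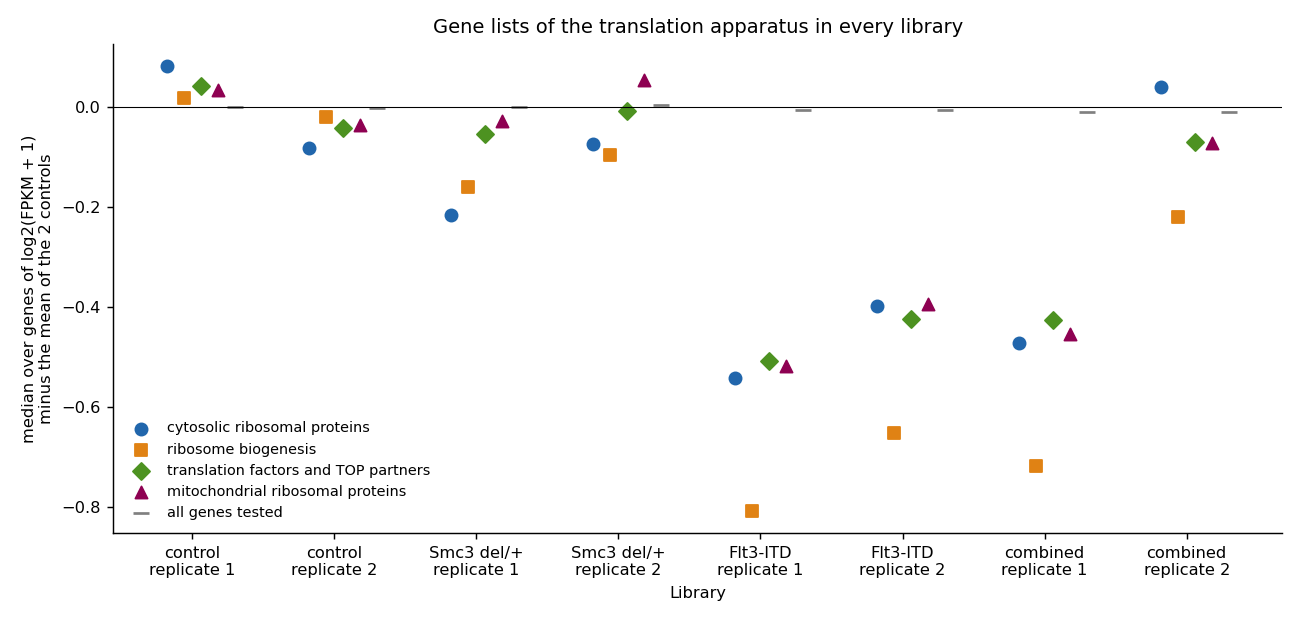
Median over each gene list of log2(FPKM + 1) minus the control mean in every library, for cytosolic ribosomal proteins, ribosome biogenesis, translation factors and mitochondrial ribosomal proteins, with all genes tested as grey dashes. Ribosome biogenesis is lowest in the Flt3-ITD libraries, at -0.81 and -0.65, and the ribosomal proteins return to 0.04 in combined replicate 2.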

How the data were processed

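The authors deposited FPKM values for 8 libraries, 2 per group, in 2 tables of 23385 rows, 92 of them spike-in RNAs; the first served as the main source and their normalized FPKM table as an alternative. The submitters' processing notes name mm9, Cufflinks 2.0.0 and TopHat. Not given in the sources used here were the annotation, strand use in counting and the normalization, and FPKM holds no read counts, so depth is unknown. The 10854 genes whose mean reached 1 FPKM entered limma 3.58.1 (R 4.3.3) on the log2(FPKM + 1) scale, with its trended variance and Benjamini-Hochberg adjustment at 0.05. One model had 4 group means (4 residual degrees of freedom), and averaged effects came from an additive model (5). The test was tried on simulated data. With 2 libraries against 2 an exact permutation p cannot go below 0.333. The genes and lists were chosen with earlier results of these data known. Named were all genes called, the 3 highest and lowest log2 fold changes per comparison, the 5 highest and lowest levels, a set of genes with known roles, and per other list the 3 of smallest p. Npm1, Rpl9 and some further examples were chosen after their values were seen. Some genes are counted but not reported here by name. Alternatives are given at the end.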

Additional observations from a re-analysis of the deposited data

How the results depend on the processing

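The genes called lower in Flt3-ITD against control (11) numbered 1 with no filter on low values, 73 in the authors' normalized table, 7 with each library centred on its median, 72 after spike-in scaling, 59 after scaling to the total without short RNA genes, 7 without a variance trend and 49 with only the 2 groups fitted, and ranged from 0 to 59 with 1 library left out. In the combined group against control (2 lower) they numbered 0 with no filter and with only those groups, 64 in the normalized table, 70 by spike-ins and 26 without short RNA genes, and ranged from 0 to 38, with 0 to 11 called higher, when a library was left out. For the averaged Flt3-ITD effect (10 lower) they numbered 3 with no filter, 66 in the normalized table, 6 centred, 67 by spike-ins, 50 without short RNA genes, and 2 to 65 with a library left out. Leaving out a library gave 0 to 42 genes called higher and 0 to 1 lower when the combined group was set against Flt3-ITD, and 0 to 37 higher for the interaction. The larger counts came with more calls over all genes and the smaller counts with fewer, and the cause was not tested. For Flt3-ITD against control, 43.1% of all genes were called lower in the normalized table and 31.0% by spike-ins. It was 21.9% without short RNA genes and 16.9% with only the 2 groups fitted. Centred it was 8.40%, without a variance trend 8.80% and with no filter 2.58%. For the combined group against control the shares were 53.4% (normalized table), 43.6% (spike-ins) and 14.5% (without short RNA genes). For the averaged Flt3-ITD effect they were 44.1%, 38.1% and 28.0%, in the same order. In the combined group against control the share was 1.78% with no filter and 0.221% with only those groups. For the averaged effect it was 11.1% centred and 3.91% with no filter. Without Rpl39 the mean large-to-small ratio was 1.22 for control, 1.21 for Smc3 del/+, 1.16 for Flt3-ITD and 1.17 for both together.

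Replicate numbers only name the libraries: deviations of same-numbered libraries correlated at -0.11 to 0.02 across genes. With the replicate block, 9 genes were called lower in Flt3-ITD against control, 8 of them among the 11. There were 2 in the combined group against control and 7 for the averaged Flt3-ITD effect. Over all genes the shares called lower were then 8.28%, 5.18% and 11.5%, in the same order. With 2 libraries per group and unknown depth, a difference that missed the threshold was not detectable here and is not shown to be absent.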

Other observations

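Ribosomal protein genes whose symbols fall outside the naming rule were read for comparison. Rps3a1, a small-subunit protein, was at 1456 and 1272 FPKM in control, 1196 and 1335 with Smc3 del/+, 979 and 1147 with Flt3-ITD and 1093 and 1577 with both. Fau, which encodes a ribosomal protein fused to a ubiquitin-like protein, was at 369 and 337 FPKM in control and 339 and 313 in Flt3-ITD, with overlap. The paralogue Rpl22l1 was at 325 and 292 FPKM in control, 357 and 299 with Smc3 del/+, 279 and 272 with Flt3-ITD and 191 and 636 with both. As for Rpl22, its lowest and highest values were both in the combined pair. Rpl36al was at 273 and 474 FPKM in that pair, and Rpl7l1 at 23.6 and 41.5.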
